A study of Homo sapiens with 10 samples.

Results

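Semaphorins are signalling proteins that are either secreted or held in the cell membrane, and plexins are their receptors. The secreted class 3 semaphorins mostly need a neuropilin, NRP1 or NRP2, as the ligand-binding partner of a plexin, whereas membrane-bound semaphorins as a rule bind plexins directly. Plexins carry an intracellular domain that acts on small GTPases of the Ras and Rap families, and through it the cytoskeleton and cell adhesion are altered. The system was found in growing axons and also acts on epithelia, blood vessels and tumour cells. Members of these families were taken by gene symbol: semaphorins of classes 3 to 7, plexins of the A, B, C and D subfamilies, and both neuropilins. The files listed 31 such genes of 26485 in all, which comprised 20 semaphorins, 9 plexins and 2 neuropilins.

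The cells came from SW480, an established line from a human colorectal adenocarcinoma that the labels give as wild type. Cells had been sorted by flow cytometry with an antibody to the receptor ROBO1 into a ROBO1-positive population, called SW480-CBC in the labels, and a ROBO1-negative population, called SW480-RSC. ROBO1pos and ROBO1neg stand for them below. Each had 5 libraries of polyadenylated RNA from untreated cells in standard medium, and the design implies 1 comparison, ROBO1pos against ROBO1neg. The labels do not tell whether the 5 replicates were grown apart, and the p-values therefore rest on library-to-library spread alone, possibly technical. The populations come from 1 cell line, and in bulk RNA fewer cells that express a gene cannot be told apart from less RNA per cell.

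Between 23228686 and 29539100 reads per library fell on genes, and levels are given as CPM, the usual scaling of counts to library size, by TMM (a trimmed mean over genes), of which 1 rested on 23.0 to 29.3 counts. The 31 genes together took 0.173% to 0.219% of these reads in ROBO1pos libraries and 0.164% to 0.182% in ROBO1neg libraries. The sorting receptor ROBO1 measured 400.0 to 462 CPM in ROBO1pos libraries and 5.63 to 9.04 CPM in ROBO1neg libraries, which follows from the sort. All 6 epithelial and colon markers were present, but not at like levels. VIL1, of the brush border, averaged 503 CPM in ROBO1pos and 27.7 CPM in ROBO1neg, and the adhesion molecule EPCAM 679.9 and 303 CPM. The keratins KRT8 and KRT18 averaged 2165 and 2343 CPM in ROBO1pos, against 3755 and 4095 CPM in ROBO1neg. CDH1 averaged 34.2 CPM in ROBO1pos and 44.4 CPM in ROBO1neg, and CDX2, an intestinal transcription factor that did not pass the threshold, 28.8 and 30.0 CPM. Markers of other cell types were low: summed over 5 fibroblast markers, levels were 10.1 to 13.7 CPM in ROBO1pos libraries and 13.99 to 22.5 CPM in ROBO1neg libraries, with DCN at 0 counts in ROBO1neg. The fibroblast markers differed in direction. COL1A1 (4.87 CPM in ROBO1pos, 14.3 in ROBO1neg) and PDGFRB (1.15 and 2.94) were higher in ROBO1neg. COL1A2 (1.97 CPM in ROBO1pos, 0.353 in ROBO1neg) and LUM (3.73 and 0.0309) were higher in ROBO1pos. Over 4 endothelial markers summed levels were 0.465 to 0.781 CPM in ROBO1pos and 2.43 to 4.36 CPM in ROBO1neg, with TEK at 0 counts in ROBO1pos, and over 5 leukocyte markers 2.36 to 2.92 and 3.02 to 3.88 CPM, with PTPRC at 0 counts in ROBO1neg. The 5 neuronal markers summed to 31.3 to 40.9 CPM in ROBO1pos and 16.3 to 21.7 CPM in ROBO1neg, mostly from SYP at 30.0 against 12.3 CPM, while SNAP25 was lower in ROBO1pos at 4.43 against 7.13 CPM. The part of these differences in the results was not tested.

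Most secreted semaphorins were higher in ROBO1pos and both of their neuropilin co-receptors higher in ROBO1neg. The neuropilins differed unequally, with log2 fold changes of -4.70 for NRP1 and -0.95 for NRP2. Libraries overlapped for NRP2, and it was not called in a test against 1.5-fold (edgeR adjusted p = 0.11). ROBO1pos cells held more mRNA of 6 of the 7 class 3 semaphorins, beside 41.6% of all tested genes. Log2 fold changes were 5.02 to 6.74 for SEMA3A, SEMA3C, SEMA3D and SEMA3E. ROBO1neg cells held more of both neuropilins and of the plexins PLXNA1, PLXNC1 and PLXND1. The plexins PLXNA2 (4.21), PLXNA3 (0.49), PLXNB1 (0.43) and PLXNB3 (0.76) were higher in ROBO1pos. PLXNA1 was at -1.57, but at -0.38 relative to the median of its chromosomal neighbours. Among membrane-bound semaphorins, SEMA6A averaged 34.8 CPM in ROBO1pos and 0.414 CPM in ROBO1neg, whereas SEMA5A averaged 0.171 CPM in ROBO1pos and 30.3 CPM in ROBO1neg. The most abundant plexin per length of transcript, PLXNB2, differed by little.

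Of the 31 genes, 28 had enough counts to be tested by edgeR's quasi-likelihood test, and 23 of these passed a Benjamini-Hochberg adjusted p of 0.05 over all 14932 genes tested. That share lies at the background, since 82.0% of all tested genes passed. Higher in ROBO1pos were 13 members, against a background of 41.6% of tested genes, and 10 were higher in ROBO1neg, against 40.4%. Passing the threshold with at least a 2-fold difference were 17 of the 28 members, whereas 30.3% of all tested genes did so. Of these, 10 were higher in ROBO1pos (background 13.5%) and 7 in ROBO1neg (background 16.8%). In a test against 1.5-fold, 11 members passed as higher in ROBO1pos and 8 as higher in ROBO1neg, beside 19.7% and 22.1% of all tested genes, or 41.8% in either direction. Libraries of the populations did not overlap for 21 of the 28 members, beside 71.9% of all tested genes. The median log2 fold change, always ROBO1pos minus ROBO1neg, was 0.31 over the tested members and 0.02 over all tested genes. The genes too low to test were SEMA4A, SEMA5B and SEMA6D.

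**Figure D1:**
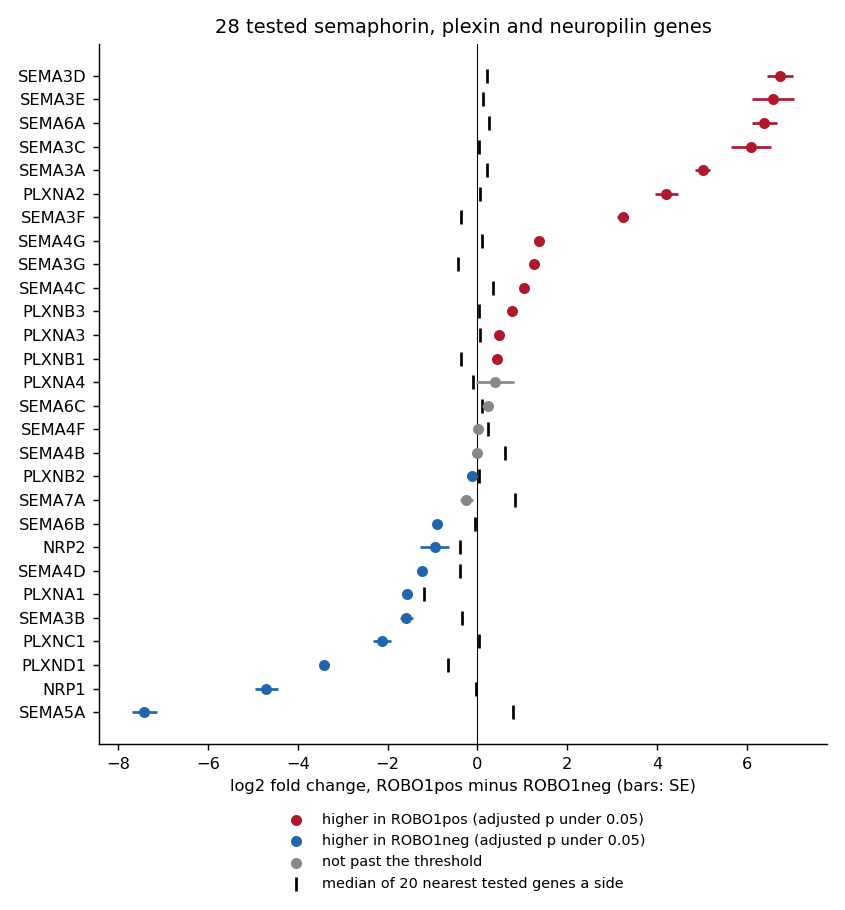
Log2 fold change (ROBO1pos minus ROBO1neg) with its SE for the 28 tested members, sorted, with the colour giving the direction of calls at an adjusted p of 0.05. Short vertical marks give the median over the 20 nearest tested genes on each side along the chromosome, and members run from 6.74 (SEMA3D) to -7.42 (SEMA5A).

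Class 3 semaphorins, the secreted ligands, were 6 of 7 higher in ROBO1pos and 1, SEMA3B, higher in ROBO1neg. Over all tested genes these shares were 41.6% and 40.4%. SEMA3A, the classical repellent of growing axons, which binds NRP1 in complex with A plexins, was the most abundant semaphorin of ROBO1pos cells. It had 486, 489.9, 408, 383 and 394 CPM in ROBO1pos libraries 1 to 5, against 17.8, 13.8, 14.4, 13.3 and 7.68 CPM in ROBO1neg libraries 1 to 5. The groups lay far apart, with a log2 fold change of 5.02 (SE 0.17, edgeR adjusted p = 4.0e-12). Divided by the length of its merged exons, its level was 46.1 ± 5.52 CPM per kb in ROBO1pos and 1.43 ± 0.388 CPM per kb in ROBO1neg (SD, n = 5 each).

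SEMA3D, a guidance cue of nerves and of the developing heart and vessels, showed the widest difference of any member in favour of ROBO1pos. Its libraries measured 175, 169, 123, 113 and 88.4 CPM in ROBO1pos and 2.29, 0.861, 1.17, 1.54 and 0.433 CPM in ROBO1neg. Even the lowest ROBO1pos library thus lay well above the highest ROBO1neg library, and the log2 fold change was 6.74 (SE 0.28, edgeR adjusted p = 3.8e-11). The 250 bases upstream of its RefSeq start are shown because it is the member with the largest positive fold change, and they stand beside those of SEMA5A, the member with the largest negative one. SEMA3D's start lies inside the gene as RefSeq bounds it. The first bases after that start were not found in any SEMA3D transcript of GENCODE 29, whereas those after the SEMA5A start were found in a SEMA5A transcript. The SEMA3D window is thus the less certain promoter. The SEMA5A window shares bases with an exon of SNHG18, a long noncoding RNA gene on the opposite strand. Both are from GRCh38.p14 and read 5′ to 3′ on the minus strand, SEMA3D at chr7:85187057-85187306 and SEMA5A at chr5:9546076-9546325. Capitals mark each CG dinucleotide.
SEMA3D: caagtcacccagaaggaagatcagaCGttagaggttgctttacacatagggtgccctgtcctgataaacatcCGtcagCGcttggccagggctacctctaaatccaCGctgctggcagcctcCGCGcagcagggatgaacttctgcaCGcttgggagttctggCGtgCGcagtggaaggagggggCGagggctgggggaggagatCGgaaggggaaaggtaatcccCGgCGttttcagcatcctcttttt
SEMA5A: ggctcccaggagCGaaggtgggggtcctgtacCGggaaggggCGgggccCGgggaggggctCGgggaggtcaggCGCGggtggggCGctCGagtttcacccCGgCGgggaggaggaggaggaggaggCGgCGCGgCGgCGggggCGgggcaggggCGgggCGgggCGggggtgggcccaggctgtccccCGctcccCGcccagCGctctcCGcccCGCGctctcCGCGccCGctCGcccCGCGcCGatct

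The SEMA3D window holds 13 CG dinucleotides and 57.6% G and C, close to the medians of 11 and 58.0% over 35116 RefSeq promoter windows of this length. The SEMA5A window holds 33 CG dinucleotides, more than 91.9% of those windows, and 82.0% G and C. Neither window contains, on either strand, the letters TGANTCA (an AP-1 motif, in 6.57% of all windows), GGAATG (a TEAD motif, in 11.9%) or CTTTGNT (a TCF/LEF motif, in 13.2%). RefSeq windows were found for 27 of the 31 members, 48 windows in all because some genes have several starts. Among them the AP-1 letters occurred in 1 window (PLXNC1), the TEAD letters in 6 and the TCF/LEF letters in 11.

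SEMA3C, which can signal through either neuropilin and through PLXND1, was abundant in ROBO1pos but uneven between libraries. It had 106, 80.8, 63.4, 49.6 and 24.3 CPM in ROBO1pos, against 1.32, 1.12, 0.911, 1.23 and 0.216 CPM in ROBO1neg. The ROBO1pos values spread over more than a 4-fold range, yet none came near a ROBO1neg value (log2 fold change 6.09 with an SE of 0.44, edgeR adjusted p = 1.2e-08). SEMA3E, which in mouse binds PLXND1 without a neuropilin, was less abundant, at 7.58, 7.30, 5.58, 4.53 and 3.74 CPM in ROBO1pos. In ROBO1neg it was at 0, 0.0431, 0, 0.205 and 0 CPM, or 7 counts over all 5 libraries. Its log2 fold change was 6.59 (SE 0.47, edgeR adjusted p = 9.8e-09), and 8.56 without ROBO1neg replicate 4, which held most of the ROBO1neg counts.

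SEMA3F, a ligand of NRP2, was higher in every ROBO1pos library, at 49.5, 52.9, 49.9, 59.8 and 61.1 CPM, against 4.67, 4.95, 4.99, 6.48 and 7.72 CPM in ROBO1neg. The log2 fold change was 3.23 (SE 0.12, edgeR adjusted p = 1.4e-11). SEMA3G, another ligand that binds NRP2, was low in both populations but did not overlap, with 6.81, 7.71, 8.02, 7.35 and 5.88 CPM in ROBO1pos and 2.85, 3.14, 2.65, 3.28 and 3.10 CPM in ROBO1neg (log2 fold change 1.25 with an SE of 0.11, edgeR adjusted p = 1.1e-07). SEMA3B, which like SEMA3F lies in a region of chromosome 3 often lost in lung cancer, was the exception in this class. It had 47.6, 31.6, 52.1, 61.4 and 64.4 CPM in ROBO1pos and 171, 167, 139.5, 146 and 145 CPM in ROBO1neg, giving -1.58 on the log2 scale (SE 0.15, edgeR adjusted p = 1.7e-07). Summed over the class, the level was 95.4 ± 12.2 CPM per kb in ROBO1pos and 30.2 ± 2.64 CPM per kb in ROBO1neg (SD, n = 5 each). SEMA3B alone stood at 8.92 ± 2.25 CPM per kb in ROBO1pos and at 26.7 ± 2.48 CPM per kb in ROBO1neg, so that most of the class 3 mRNA of ROBO1neg cells was SEMA3B.

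**Figure D2:**
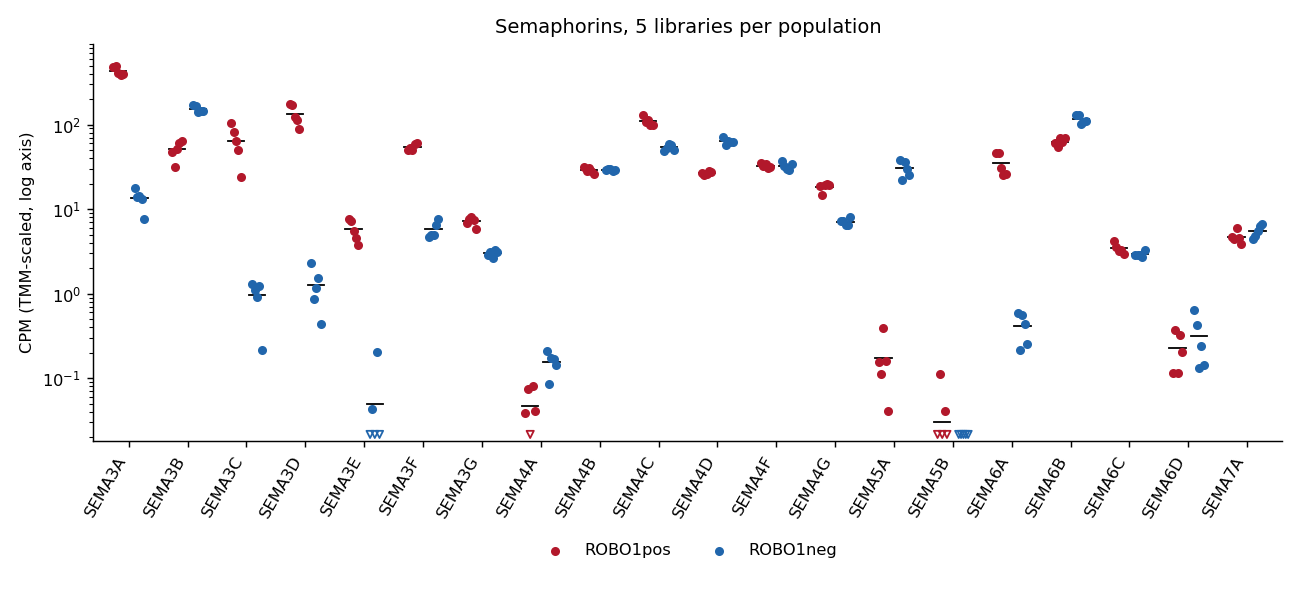
CPM on a log axis of all 20 semaphorins in each of the 5 ROBO1pos (red) and 5 ROBO1neg (blue) libraries, with black lines for group means and open triangles at the bottom for libraries with 0 counts. SEMA3A, SEMA3C, SEMA3D, SEMA3E and SEMA6A lie higher in ROBO1pos by the widest gaps, and SEMA5A lies at 30.3 CPM on average in ROBO1neg and 0.171 CPM in ROBO1pos.

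Class 4 semaphorins span the membrane and mostly bind B plexins. Of 5 tested members, 2 were higher in ROBO1pos and 1 in ROBO1neg, beside 41.6% and 40.4% of all tested genes. The other 2 did not pass the threshold. SEMA4C, a ligand of PLXNB2, had 129.7, 107, 115, 99.1 and 98.2 CPM in ROBO1pos and 49.3, 52.3, 59.6, 57.7 and 49.8 CPM in ROBO1neg. It was higher in every ROBO1pos library (log2 fold change 1.03 with an SE of 0.08, edgeR adjusted p = 2.5e-08). SEMA4G was higher in ROBO1pos as well, at 18.7, 14.8, 19.4, 19.6 and 19.2 CPM against 7.26, 7.28, 6.47, 6.48 and 7.97 CPM in ROBO1neg (log2 fold change 1.37 with an SE of 0.09, edgeR adjusted p = 6.9e-09). Its exons share 1170 bases with MRPL43 on the opposite strand, and no source used here states whether the counting used strand, which leaves its counts uncertain.

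SEMA4D, the ligand of PLXNB1 known from immune cells and tumour vessels, went the other way, with 26.8, 25.2, 26.4, 28.3 and 27.7 CPM in ROBO1pos and 72.004, 57.6, 63.5, 62.1 and 62.0 CPM in ROBO1neg (log2 fold change -1.24 with an SE of 0.06, edgeR adjusted p = 1.3e-10). No ROBO1pos library reached a ROBO1neg one. SEMA4B and SEMA4F did not pass the threshold, at log2 fold changes of -0.02 (SE 0.06; -0.63 relative to its chromosomal neighbours) and 0.01 (SE 0.07), and the sign of each changed under other scalings, filters or left-out libraries. SEMA4B averaged 28.9 ± 2.06 CPM in ROBO1pos and 29.3 ± 0.804 CPM in ROBO1neg, and SEMA4F 32.8 ± 1.78 and 32.5 ± 3.39 CPM. SEMA4A was not tested, with 6 counts over ROBO1pos libraries and 20 over ROBO1neg libraries.

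SEMA5A, a transmembrane semaphorin with thrombospondin repeats in its outer part, showed the steepest difference of all 28 tested members. Its libraries held 0.155, 0.111, 0.387, 0.162 and 0.0411 CPM in ROBO1pos, which is 22 counts in all, against 38.3, 22.4, 35.8, 29.9 and 25.1 CPM in ROBO1neg. The log2 fold change was -7.42 (SE 0.27, edgeR adjusted p = 1.0e-11). The 20 nearest tested genes on each side of SEMA5A on chromosome 5 had a median log2 fold change of 0.79, of the opposite sign, which puts SEMA5A at -8.20 relative to them. An antisense gene, AC021088.1, shares 436 exonic bases with SEMA5A. SEMA5B, the other class 5 member, had 4 counts over ROBO1pos libraries and 0 over ROBO1neg libraries and was not tested.

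Class 6 members span the membrane and bind A plexins. Of those tested, 1 was higher in ROBO1pos and 1 in ROBO1neg, beside 41.6% and 40.4% of all tested genes, and 1 did not pass. SEMA6A, which in mouse binds PLXNA2 and PLXNA4, had 45.7, 46.3, 30.8, 25.3 and 25.9 CPM in ROBO1pos and 0.595, 0.215, 0.564, 0.444 and 0.252 CPM in ROBO1neg. These levels are far apart, with a log2 fold change of 6.39 (SE 0.28, edgeR adjusted p = 6.0e-11). An antisense gene of SEMA6A, SEMA6A-AS1, was also higher in ROBO1pos at 2.05 against 0.208 CPM in ROBO1neg. Without a stated strand setting, reads of this pair may not be separated. SEMA6B was lower in ROBO1pos, at 62.8 ± 6.60 CPM against 116 ± 13.3 CPM in ROBO1neg (log2 fold change -0.89 with an SE of 0.08, edgeR adjusted p = 2.1e-07).

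SEMA6C measured 3.43 ± 0.479 CPM in ROBO1pos and 2.91 ± 0.195 CPM in ROBO1neg and did not pass (log2 fold change 0.23, SE 0.12), though it did with upper quartile scaling (edgeR adjusted p = 0.039). SEMA6D was not tested, with 29 counts over ROBO1pos libraries and 39 over ROBO1neg libraries. SEMA7A, which is anchored by a lipid and binds PLXNC1 and integrins with the beta-1 chain, was at 4.70 ± 0.800 CPM in ROBO1pos and 5.55 ± 0.957 CPM in ROBO1neg. Relative to its chromosomal neighbours it stood at -1.08, a value with no test. Its log2 fold change of -0.24 (SE 0.14) did not pass, but it passed as higher in ROBO1neg without ROBO1pos replicate 3 (-0.35, edgeR adjusted p = 0.034).

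Both neuropilins were higher in ROBO1neg. NRP1, the co-receptor of SEMA3A and of vascular endothelial growth factors, had 2.01, 2.11, 1.47, 0.970 and 0.657 CPM in ROBO1pos, against 33.5, 23.9, 42.6, 43.5 and 46.6 CPM in ROBO1neg. The populations were far apart (log2 fold change -4.70 with an SE of 0.25, edgeR adjusted p = 4.5e-10). An antisense gene, AL121748.2, shares 561 exonic bases with NRP1. NRP2, the co-receptor of SEMA3F and SEMA3G, differed less and its libraries overlapped. It had 44.6, 32.1, 18.5, 13.5 and 9.33 CPM in ROBO1pos and 40.8, 41.6, 40.5, 46.6 and 59.5 CPM in ROBO1neg, giving -0.95 on the log2 scale (SE 0.32, edgeR adjusted p = 0.013). ROBO1pos replicate 1 lay within the ROBO1neg range and the other ROBO1pos libraries below it. Of all neuropilin mRNA per length, NRP1 made up 7.42% ± 1.36 in ROBO1pos and 49.6% ± 5.65 in ROBO1neg (SD, n = 5 each), and NRP2 the remainder.

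**Figure D3:**
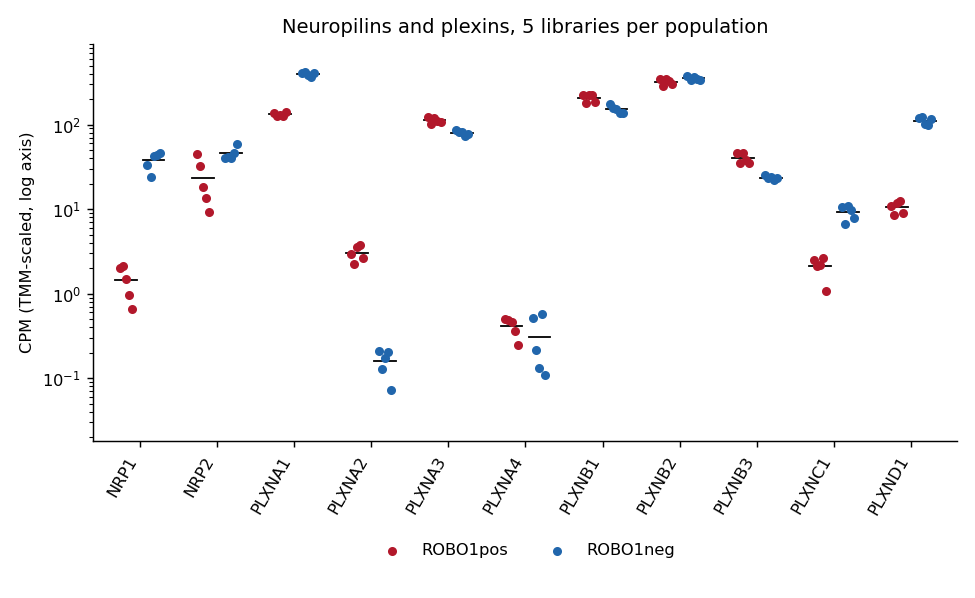
CPM on a log axis of both neuropilins and all 9 plexins in each of the 5 ROBO1pos (red) and 5 ROBO1neg (blue) libraries, with black lines for group means. NRP1 and PLXND1 are lower in ROBO1pos, PLXNA2 is higher there, and the libraries of NRP2, PLXNA4 and PLXNB2 overlap.

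Plexins divided evenly, with 4 of 9 higher in ROBO1pos, 4 higher in ROBO1neg and PLXNA4 not past the threshold. These shares lie near the 41.6% and 40.4% of all tested genes. PLXND1, the receptor of SEMA3E known from blood vessels, had 11.0, 8.64, 11.7, 12.4 and 8.92 CPM in ROBO1pos, against 119, 123, 102, 99.2 and 116 CPM in ROBO1neg. Its log2 fold change was -3.41 (SE 0.10, edgeR adjusted p = 1.2e-12), and -2.76 once the median of its chromosomal neighbours had been subtracted. PLXNC1, the receptor of SEMA7A, was low in ROBO1pos at 2.52, 2.15, 2.17, 2.63 and 1.07 CPM, against 10.7, 6.63, 10.8, 9.90 and 7.86 CPM in ROBO1neg (log2 fold change -2.12 with an SE of 0.20, edgeR adjusted p = 2.5e-07). Its exons share 177 bases with CEP83 on the other strand.

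The A plexins, partners of neuropilins and receptors of class 6 ligands, moved in different directions. PLXNA1 had 139, 127, 128, 127 and 141 CPM in ROBO1pos and 404, 415, 385, 362 and 403 CPM in ROBO1neg, with narrow spreads in both (log2 fold change -1.57 with an SE of 0.05, edgeR adjusted p = 2.3e-12). The gene occupies bases 126983115 to 127037389 of chromosome 3 (GRCh38.p14), where the 20 nearest tested genes on each side had a median log2 fold change of -1.19. Relative to that median PLXNA1 stood at -0.38. PLXNA2, a receptor of SEMA6A, was low but differed widely, at 2.94, 2.22, 3.53, 3.72 and 2.63 CPM in ROBO1pos against 0.212, 0.129, 0.174, 0.205 and 0.0721 CPM in ROBO1neg (log2 fold change 4.21 with an SE of 0.26, edgeR adjusted p = 2.0e-09). PLXNA3 was at 113 ± 8.56 CPM in ROBO1pos and 80.4 ± 4.65 CPM in ROBO1neg (log2 fold change 0.49 with an SE of 0.06, edgeR adjusted p = 2.0e-06). PLXNA4 stood at 0.412 ± 0.107 CPM in ROBO1pos and 0.309 ± 0.221 CPM in ROBO1neg.

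B plexins, receptors of class 4 semaphorins, differed by less than 2-fold. PLXNB1 was at 207 ± 23.6 CPM in ROBO1pos and 153 ± 15.4 CPM in ROBO1neg (log2 fold change 0.43 with an SE of 0.08, edgeR adjusted p = 0.00023). PLXNB3 was at 40.1 ± 5.42 and 23.7 ± 1.09 CPM (log2 fold change 0.76 with an SE of 0.08, edgeR adjusted p = 9.1e-07), but shares 1432 exonic bases with SRPK3 on the same strand, so reads there may be counted to either or to none. PLXNB2 measured 323 ± 25.8 CPM in ROBO1pos and 353 ± 15.5 CPM in ROBO1neg, with libraries that overlapped. Its log2 fold change of -0.12 (SE 0.05) passed narrowly (edgeR adjusted p = 0.049), and no longer did with upper quartile scaling (0.32), with library sizes alone (0.090), with the filter of 5 CPM in 5 libraries (0.061), in the test against 1.5-fold (1), or without any of 6 libraries. Those were ROBO1pos replicates 2, 4 and 5 (0.11, 0.050 and 0.085) and ROBO1neg replicates 1, 3 and 4 (0.099, 0.091 and 0.063).

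Levels per kb of merged exons put the genes of each family in order. Among plexins, ROBO1pos cells had PLXNB2 first at 44.6 ± 3.55 CPM per kb, then PLXNB1 at 21.3 ± 2.43, PLXNA1 at 12.1 ± 0.647, PLXNA3 at 9.62 ± 0.731 and PLXNB3 at 5.72 ± 0.773. In ROBO1neg cells PLXNB2 was also first at 48.6 ± 2.13 CPM per kb, followed by PLXNA1 at 36.0 ± 1.91, PLXNB1 at 15.7 ± 1.58, PLXND1 at 11.5 ± 1.10 and PLXNA3 at 6.87 ± 0.397. Neighbours in either order stood apart by more than their SDs, and the places of PLXNA1 and PLXND1 differed between the populations. PLXNA1 made up 12.8% ± 1.23 of plexin mRNA per length in ROBO1pos and 29.3% ± 1.17 in ROBO1neg, and PLXND1 1.14% ± 0.119 and 9.34% ± 0.723.

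Among semaphorins, SEMA3A led in ROBO1pos with 31.3% ± 1.63 of semaphorin mRNA per length, against 1.67% ± 0.401 in ROBO1neg. After it in ROBO1pos came SEMA4C at 17.8 ± 2.12 CPM per kb, SEMA3D at 16.6 ± 4.62 and SEMA6B at 14.2 ± 1.496, each within the spread of its neighbour in that order. In ROBO1neg, SEMA3B and SEMA6B led at 26.7 ± 2.48 and 26.4 ± 3.01 CPM per kb, again within their spread, followed by SEMA4C at 8.73 ± 0.758. SEMA3B and SEMA6B together with SEMA4C were thus the most abundant semaphorins of ROBO1neg cells. The semaphorin sum was 147 ± 14.2 CPM per kb in ROBO1pos and 85.1 ± 5.56 in ROBO1neg, the plexin sum 94.8 ± 7.48 and 123 ± 5.34, and the neuropilin sum 1.82 ± 1.10 and 6.59 ± 1.25 (SD, n = 5 each). Libraries of the populations did not overlap for any of these sums. Lengths were of merged exons in GENCODE 29, so a gene of which short isoforms are expressed has its level understated.

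Known ligand and receptor pairs were set side by side by their log2 fold changes. SEMA6A and its receptor PLXNA2 were both higher in ROBO1pos, with log2 fold changes of 6.39 and 4.21. SEMA3A, at 5.02, and its co-receptor NRP1, at -4.70, went in opposite directions, as did SEMA3E at 6.59 and PLXND1 at -3.41, and SEMA3F at 3.23 and NRP2 at -0.95. SEMA4D at -1.24 and PLXNB1 at 0.43 also differed in sign, as did SEMA4C at 1.03 and PLXNB2 at -0.12, which passed only narrowly. SEMA7A at -0.24, which did not pass, and PLXNC1 at -2.12 had the same sign. SEMA3B, at -1.58, had the sign of both neuropilins. Not every pair named above is listed here. The pairs were chosen after the values had been seen, and no pair was tested.

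Position on the chromosome grouped several members. SEMA3C, SEMA3E, SEMA3A and SEMA3D lie within 4.51 Mb of the long arm of chromosome 7, from 80742538 to 85250243 (GRCh38.p14). The stretch contained only 2 further tested genes, CACNA2D1, a calcium channel subunit, and PCLO, a presynaptic scaffold protein, which stood at 6.41 (SE 0.12) and 1.11 (SE 0.09) on the log2 scale. All 6 tested genes there were called higher in ROBO1pos, beside 41.6% of all tested genes. The bounds were semaphorins already called higher in ROBO1pos, and only 2 of the 6 were other genes. The next tested genes before SEMA3C, CD36 and GNAI1, were at 4.94 (SE 0.56) and 2.95 (SE 0.20), and the next after SEMA3D, KIAA1324L and DMTF1, at 0.79 (SE 0.04) and 0.35 (SE 0.06). HGF, the ligand of the receptor MET, lies in this stretch too and had 6 counts over ROBO1pos libraries and 0 over ROBO1neg libraries. The medians over the 20 nearest tested genes on each side of the 4 semaphorins were 0.04 to 0.20, near the 0.02 of all tested genes. The stretch was picked out after the values had been seen and was not tested as a unit.

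SEMA3F and SEMA3B lie 0.105 Mb apart on the short arm of chromosome 3, measured between gene starts, and differed in opposite directions. Between them, SLC38A3, an amino acid transporter, was at 5.44 (SE 0.43) like SEMA3F, and GNAI2, a G protein subunit, at -0.88 (SE 0.04) like SEMA3B. Of the flanking genes, RBM6 and RBM5 were at -0.21 and -0.18, and LSMEM2 and IFRD2, at -0.31 and -0.11, did not pass the threshold. The median of the 20 nearest tested genes on each side was -0.36 for SEMA3F and -0.35 for SEMA3B.

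**Figure D4:**
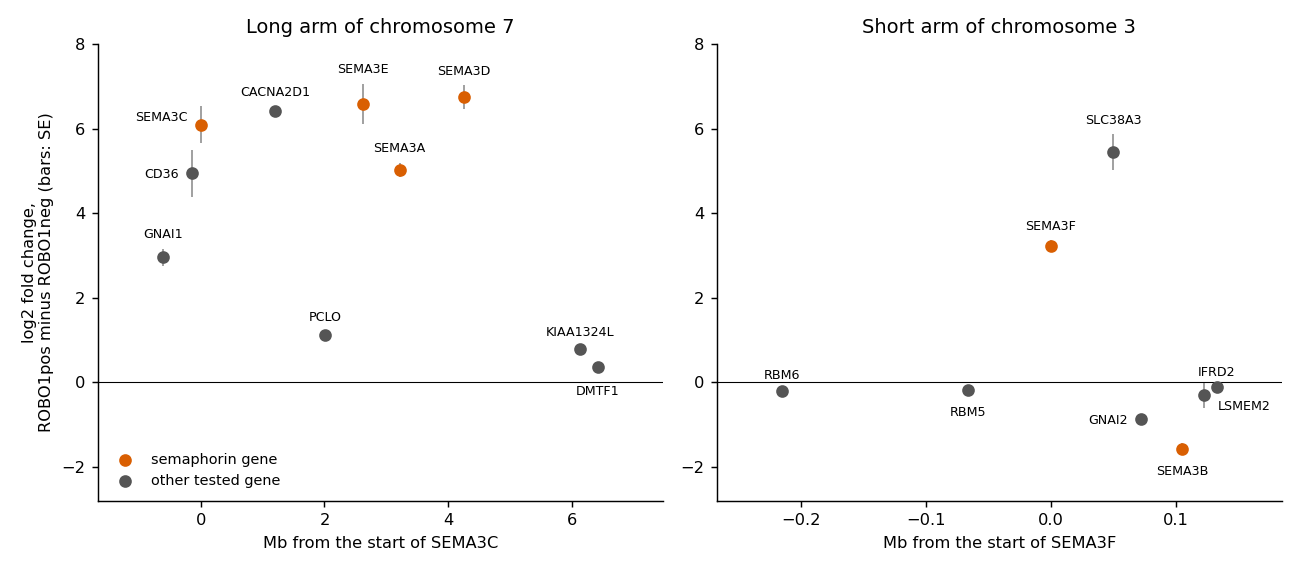
Log2 fold change (ROBO1pos minus ROBO1neg, bars SE) of tested genes against distance in Mb from the start of SEMA3C on chromosome 7 (left) and of SEMA3F on chromosome 3 (right), with semaphorins in orange. On the left all 6 genes from SEMA3C to SEMA3D are above 0 and called higher in ROBO1pos, beside 41.6% of all tested genes. On the right SEMA3F at 3.23 and SEMA3B at -1.58 lie on opposite sides of 0.

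Replicates of both populations differed more in several of these genes than in the median gene. The coefficient of variation in ROBO1pos was 61.6% for NRP2, 47.7% for SEMA3C, 44.0% for NRP1, 30.0% for SEMA6A, 29.3% for SEMA3E, 29.3% for PLXNC1 and 27.9% for SEMA3D, while its median over all tested genes of at least 1 CPM was 7.19%. In ROBO1neg it was 56.1% for SEMA3D, 27.1% for SEMA3A, 24.5% for NRP1, 22.6% for SEMA3F and 22.5% for SEMA5A, beside a median of 6.85%. SEMA3D in ROBO1neg and NRP1 in ROBO1pos averaged only 1.26 and 1.44 CPM, and the part of low counts in their spread was not tested. Some members varied less than these medians, such as PLXNA1 at 5.34% in ROBO1pos and 5.31% in ROBO1neg. Among ROBO1pos libraries, replicates 1 and 2 held the highest values of SEMA3A, SEMA3C, SEMA3D, SEMA3E, SEMA6A, NRP1 and NRP2, and replicate 5 the lowest of SEMA3C, SEMA3D, SEMA3E, NRP1 and NRP2. SEMA3B ran the other way, with its highest value in replicate 5 and its lowest in replicate 2. ROBO1 itself had 462, 453, 416, 417 and 400.0 CPM in the 5 ROBO1pos libraries, so that replicates 1 and 2 were highest there as well. Its part in these differences was not tested. With 5 libraries a group no correlation between these genes is given.

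Partners and effectors of semaphorin signalling were followed as a list of 64 genes, of which 61 were tested. Of these, 15 were higher in ROBO1pos, 36 higher in ROBO1neg and 10 did not pass, beside backgrounds of 41.6% and 40.4% of all tested genes. The median log2 fold change was -0.32 over the list and 0.02 over all tested genes. In a test against 1.5-fold, 10 passed as higher in ROBO1pos and 18 as higher in ROBO1neg, beside 19.7% and 22.1% of all tested genes. Of the genes named below, MST1R, ITGB1, ARHGEF11, ARHGEF12, RND1 and DPYSL2 lost their call in that test. RAP2A, RAC1, RRAS2 and RHOA, also named below, differed by less than 1.5-fold, and their results in that test are not given. Subtracting the median of the chromosomal neighbours moved RAP2A to 1.02, FARP1 to -1.79, CD72 to -0.54 and FURIN to -1.58 on the log2 scale. It moved RND1 to 0.058, with its sign turned.

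Co-receptors were 4 of 12 tested higher in ROBO1pos and 7 higher in ROBO1neg, beside 41.6% and 40.4% of all tested genes. CHL1, an adhesion molecule that associates with neuropilins, was at 22.9 ± 3.59 CPM in ROBO1pos and 0.247 ± 0.181 CPM in ROBO1neg (log2 fold change 6.52 with an SE of 0.26, edgeR adjusted p = 1.9e-11). Its relative L1CAM, a partner of NRP1 in the response to SEMA3A, was at 69.4 ± 8.64 and 317 ± 39.3 CPM, so these related molecules differed in direction. MET, the receptor kinase that associates with B plexins, was higher in ROBO1pos at 71.1 ± 9.90 against 17.1 ± 1.96 CPM in ROBO1neg (log2 fold change 2.05, SE 0.10). The related kinase MST1R and ERBB2, which also associate with B plexins, were lower in ROBO1pos, with log2 fold changes of -0.38 and -0.76. Relative to the median of its chromosomal neighbours, MST1R stood at 0.014, with the sign turned. ITGB1, the integrin chain that serves SEMA7A, was at -0.22 (SE 0.04), and CD72, a lymphocyte receptor of SEMA4D, at 1.17 ± 0.0827 CPM in ROBO1pos and 2.71 ± 0.423 CPM in ROBO1neg.

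Small GTPases of the list were 11 of 12 higher in ROBO1neg, beside 40.4% of all tested genes. RAP2A was the exception at a log2 fold change of 0.36 (SE 0.05). Several of the others differed by little, such as RAC1 at -0.20, RRAS2 at -0.21 and RHOA at -0.53 on the log2 scale. RRAS, a Ras protein on which plexins act, was at 4.54 ± 0.393 CPM in ROBO1pos and 24.7 ± 0.572 CPM in ROBO1neg (log2 fold change -2.45 with an SE of 0.07, edgeR adjusted p = 9.6e-13). RND1, which binds plexins directly, was low at 1.63 ± 0.252 and 2.40 ± 0.788 CPM (edgeR adjusted p = 0.027) and was not called without ROBO1pos replicates 3 or 4 (0.058 and 0.059) or ROBO1neg replicates 3 or 4 (0.084 and 0.064). Among exchange factors, FARP1 was at 28.99 ± 2.49 CPM in ROBO1pos and 155 ± 6.05 CPM in ROBO1neg (log2 fold change -2.42 with an SE of 0.06, edgeR adjusted p = 1.8e-13). Its relative FARP2, an exchange factor in the SEMA3A response of neurons, was higher in ROBO1pos at 19.5 ± 0.678 against 11.3 ± 0.691 CPM. ARHGEF11 and ARHGEF12, which bind the tails of B plexins and activate RHOA, were at log2 fold changes of -0.56 (SE 0.04) and -0.14 (SE 0.05), and ARHGEF12 was not called with upper quartile scaling (adjusted p = 0.18) or without ROBO1neg replicate 3 (0.059).

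**Figure D5:**
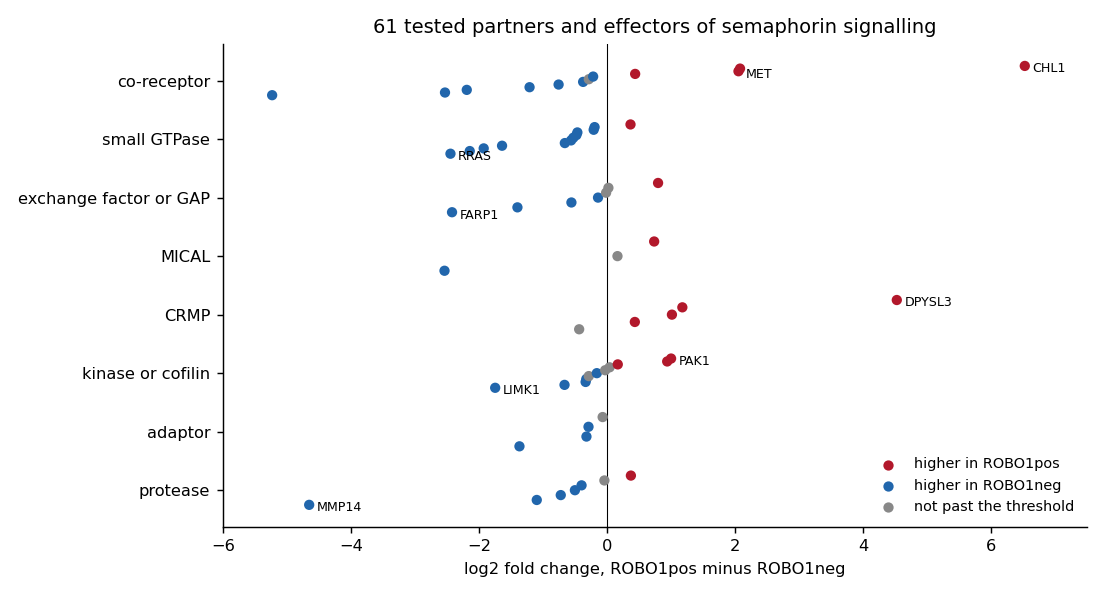
Log2 fold change (ROBO1pos minus ROBO1neg) of the 61 tested partners and effectors by class, each point 1 gene, coloured by the direction of its call, with the 4 genes of smallest adjusted p in each direction named. The CRMP class lies to the right with 4 of 5 called higher in ROBO1pos, beside 41.6% of all tested genes. Small GTPases lie to the left, several by small differences, with 11 of 12 called higher in ROBO1neg, beside 40.4%.

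Collapsin response mediator proteins (CRMPs) bind tubulin and were found as mediators of the SEMA3A response. Of the CRMP genes, 4 of 5 were higher in ROBO1pos, beside 41.6% of all tested genes, and DPYSL4 did not pass. DPYSL3 was at 524 ± 82.1 CPM in ROBO1pos and 22.9 ± 7.05 CPM in ROBO1neg (log2 fold change 4.52 with an SE of 0.19, edgeR adjusted p = 4.7e-11). DPYSL2 differed less, by 0.43 on the log2 scale (SE 0.08). Libraries of the populations overlapped for DPYSL2, and it was not called in the test against 1.5-fold. MICAL enzymes, which oxidise actin downstream of A plexins, differed in direction. MICAL2 was at 19.8 ± 2.58 CPM in ROBO1pos and 115 ± 18.4 CPM in ROBO1neg, MICAL3 at 80.4 ± 3.60 and 48.4 ± 3.64 CPM, and MICAL1 did not pass (log2 fold change 0.16, SE 0.11) but did as higher in ROBO1pos without ROBO1pos replicate 5 (0.23, edgeR adjusted p = 0.043).

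Among kinases, PAK1, a target of RAC1, was higher in ROBO1pos at 42.7 ± 2.64 against 21.3 ± 1.96 CPM in ROBO1neg (log2 fold change 1.00 with an SE of 0.07, edgeR adjusted p = 5.8e-09). LIMK1, which phosphorylates the actin-severing protein cofilin, was lower in ROBO1pos at 55.9 ± 5.63 against 188 ± 10.1 CPM (log2 fold change -1.75 with an SE of 0.06, edgeR adjusted p = 1.0e-11). GIPC1, an adaptor that binds the tail of NRP1, was at 87.4 ± 3.43 CPM in ROBO1pos and 91.8 ± 5.63 CPM in ROBO1neg and did not pass, though it did as lower in ROBO1pos without ROBO1neg replicate 3 (edgeR adjusted p = 0.046). Of 7 proteases, 1 was higher in ROBO1pos and 5 in ROBO1neg, beside 41.6% and 40.4% of all tested genes. MMP14, a membrane protease that can shed SEMA4D, was at 4.02 ± 0.549 CPM in ROBO1pos and 101 ± 5.90 CPM in ROBO1neg (log2 fold change -4.65 with an SE of 0.08, edgeR adjusted p = 8.3e-15). FURIN, the convertase that cleaves class 3 semaphorins, was at 74.0 ± 4.16 CPM in ROBO1pos and 122 ± 17.2 CPM in ROBO1neg (log2 fold change -0.72, SE 0.08).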

How the data were processed

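The authors deposited unnormalised read counts for each gene and library. STAR 2.6.0c, SAMtools 1.9, DESeq2 1.24.0 and GRCh38 are listed per the submitters' processing notes, and per the labels' protocols a stranded kit for polyadenylated RNA. The sources used here do not name the counting tool, its strand setting or the annotation. Entries without a gene name entered neither library sizes nor tests. Gene entries held 57.5% to 59.7% of listed reads in ROBO1pos libraries and 63.1% to 63.8% in ROBO1neg libraries, and reads without a unique position 24.1% to 26.2% and 20.5% to 21.5%.

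Genes were filtered by filterByExpr, scaled by TMM and fitted by edgeR 4.0.16 (quasi-likelihood, group as the only term) in R 4.3.3. Calls needed a Benjamini-Hochberg adjusted p under 0.05 over all genes tested. Standard errors came from the coefficient and its F statistic. CPM values use TMM-scaled library sizes. The fit was tested on simulated data. Alternatives included DESeq2 1.42.0 and limma 3.58.1 (voom). Positions, and promoter sequences, came from RefSeq tables for GRCh38.p14.

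The members and lists were chosen with earlier results of these data known. Values in every library were given for members called with at least a 2-fold difference and at least 1 CPM in the higher group. From the list of partners, the 4 genes of smallest adjusted p per direction and direct partners of the members were named. RAP2A, RAC1, RRAS2, RHOA, MICAL3, DPYSL2 and DPYSL4, and genes near the semaphorins, were named after their values were seen. Protein sequences were not used here. No library pair within a group was a duplicate: a chi-square test of their counts gave 3.55 to 22.0 for each degree of freedom.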

Additional observations from a re-analysis of the deposited data

Results flagged for a closer look

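Within a group of 5 libraries, 6 of the 100 gene and group combinations examined had a library set apart from the others by more than Dixon's 95% critical value, and chance alone gives about 1 in 20. SEMA4G in ROBO1pos replicate 2 was at 14.8 CPM, with the others at 18.7 to 19.6. SEMA3E in ROBO1neg replicate 4 was at 0.205 CPM, with the others at 0 to 0.0431. FARP1 in ROBO1neg replicate 1 was at 166 CPM (others 152 to 154), ARHGEF12 in ROBO1neg replicate 2 at 333 CPM (others 384 to 401), MICAL2 in ROBO1neg replicate 5 at 147 CPM (others 101 to 112) and MMP14 in ROBO1pos replicate 5 at 4.97 CPM (others 3.59 to 3.99).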

How the results depend on the processing

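The members called numbered 13 higher in ROBO1pos and 10 higher in ROBO1neg, and under the other scalings, filters, tools and the test against 1.5-fold they numbered 11 to 14 and 8 to 11. Leaving out each library in turn gave 13 to 13 and 9 to 11, and for the partners and effectors 15 to 17 and 35 to 37. Partners and effectors higher in ROBO1neg fell to 18 in the test against 1.5-fold, in which NRP2, PLXNA3, PLXNB1 and PLXNB2 were not called either. The sign of SEMA4B changed with upper quartile scaling (0.045) and library sizes alone (0.0023), and it ran from -0.052 to 0.010 over the left-out libraries. SEMA4F was at -0.00047 with no filter beyond 1 count, and ran from -0.032 to 0.062 over the left-out libraries. With the median of the chromosomal neighbours subtracted, 12 members and 12 of 22 partners checked moved by more than the spread between libraries. The signs of MST1R (0.014) and RND1 (0.058) turned. The fold change moved by over 1.5 times for the members PLXNA1 (-0.38), PLXND1 (-2.76), SEMA4B (-0.63), SEMA5A (-8.20) and SEMA7A (-1.08). Of the partners named above it did so for RND1, FARP1 (-1.79), CD72 (-0.54), FURIN (-1.58) and RAP2A (1.02). These are values with no test. The cause of these changes was not tested. Genes of a few counts per library, such as SEMA3E in ROBO1neg, are limited by depth.

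With the replicate number as a block, the members called again numbered 13 and 10, and the partners and effectors 15 and 36, and no call of a member changed. Deviations from the group means of libraries with the same number correlated over genes at 0.0714 to 0.192. Every ROBO1pos library, but 3 of 5 ROBO1neg libraries, correlated best with its own number, which is a hint from the data and not the design.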
